A study of Mus musculus with 6 samples.

Results

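Small nucleolar RNAs (snoRNAs) and the *Snhg* genes that carry many of them were examined in Raw264.7 cells, a mouse macrophage line, with and without knockdown of *Etv5*. Members were the rows of the expression table whose symbol begins with *Snora* or *Snord* and a digit, or with *Snhg* and a digit, plus *Gas5*, and were selected on a level of 1 RPKM or more (reads scaled to the length of the gene and to the number of mapped reads) in at least 3 of the 6 libraries. Of 127 rows with such a symbol, 81 passed, namely 68 snoRNA loci and 13 host genes, among 10738 genes that passed the same filter and 24786 rows in all. The rule used the level of expression and not the difference between the groups. The list nevertheless was proposed with results of these libraries known, so its counts describe these libraries only.

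SnoRNAs are short noncoding RNAs that guide chemical modification of ribosomal and spliceosomal RNA. Box C/D snoRNAs guide methylation of the ribose, and box H/ACA snoRNAs guide conversion of uridine to pseudouridine. In mammals most are cut from the introns of a host gene after splicing, and many hosts encode ribosomal proteins or translation factors. The *Snhg* (snoRNA host gene) genes and *Gas5* encode spliced RNAs with little protein-coding capacity, several of which are degraded by nonsense-mediated decay.

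The comparison was between 3 libraries from cells infected with lentivirus carrying a control shRNA (sh-NC) and 3 from cells infected with lentivirus carrying an shRNA against *Etv5* (sh-*Etv5*, genotype "Etv5 knockdown"). All 6 libraries share the line, which was established from an Abelson murine leukemia virus-induced tumor, and the labels give the strain C57BL/6 and an age of postnatal day 21 for each of them. Raw264.7 is an established line usually described as derived from BALB/c mice, so neither label was relied on. The labels place measurements at 24 or 48 hours after infection without saying which holds for these libraries. Which of the study's 3 shRNAs was sequenced is not stated, and no source ties each library to an infection of its own, so the p-values measure the spread between libraries, which may be technical. The labels name infection and the study's text describes stably transfected cells, and the labels give polyA RNA as the molecule. *Etv5*, which encodes a transcription factor of the ETS family, measured 9.18, 9.89 and 9.39 RPKM in sh-NC and 5.19, 4.91 and 5.28 in sh-*Etv5*. It fell by 0.78 on the log2(RPKM + 1) scale on which every fold change here is given (limma, adjusted p = 2.74e-07).

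The 8 macrophage markers were all expressed, and their summed level was 3870 to 3980 RPKM in sh-NC and 2870 to 2940 in sh-*Etv5*. *Lyz2* made up most of that sum, and the markers went both ways: *Cd68*, *Csf1r*, *Lyz2* and *Fcgr1* were called lower, *Adgre1*, *Itgam* and *Spi1* (log2 fold changes 1.77, 1.88 and 0.15 on the scale above) were called higher, and *Ptprc* was not called. The summed markers of fibroblasts were 0.0326 to 0.0789 RPKM in sh-NC and 0.838 to 1.11 in sh-*Etv5*, with *Col1a2* at 0, and those of B cells 0.0367 to 0.199 and 0.256 to 0.733, with *Pax5* at 0. Those of T cells were 1.07 to 1.64 in sh-NC and 4.0 to 4.21 in sh-*Etv5*, and those of neutrophils 0.123 to 0.532 and 15.6 to 19.7, with the neutrophil genes *Elane*, *S100a9* and *Ly6g* listed at 0 in every library. Of 6 neutrophil markers 1 (*S100a8*) passed the filter, as did 1 (*Lck*) of 5 T cell markers in the table and 0 of the fibroblast and B cell markers. The part of these marker differences in the results below was not tested. The values stem from coverage tracks, and in short loci 96.4% to 98.4% of the low values were whole multiples, within 0.05, of 1 covered base. By that step 1 RPKM was a mean coverage of 5.7 to 6.62 reads per base in 5 libraries. In sh-*Etv5* 3 the fitted step gave 11.2, but values at several short loci there also matched a coarser step. The depth of that library was therefore not settled, and 11.2 may be too high.

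Mature sequences of the loci on which the results turn are shown first, since a reader can see in them the boxes that define each family. They are GENCODE M21 transcripts on GRCm38, written 5′ to 3′ as DNA. Box C/D members have the D box (CTGA) and, where it is found in the window searched, the C box (TGATGA) in capitals, and box H/ACA members have the ACA triplet near their 3′ end in capitals. *Snord47* (chr1:161038082-161038158, plus strand) lies in *Gas5*, *Snord16a* (chr9:64175423-64175521, plus strand) in the ribosomal protein gene *Rpl4*, and *Snord49a* (chr11:62603450-62603521, plus strand) and *Snord49b* (chr11:62603079-62603150, plus strand) both in the noncoding gene *2410006H16Rik*. *Snord89* (chr1:39548745-39548854, minus strand) was the only member called higher. *Snora2b* (chr15:98526346-98526482, minus strand), in *Kansl2*, had the largest fall, and *Snora24* (chr3:123507937-123508066, minus strand) lies in *Snhg8*.
Snord47: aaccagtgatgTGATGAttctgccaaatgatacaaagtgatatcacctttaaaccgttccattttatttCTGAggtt
Snord16a: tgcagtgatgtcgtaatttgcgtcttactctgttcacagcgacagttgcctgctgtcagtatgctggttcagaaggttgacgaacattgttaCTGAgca
Snord49a: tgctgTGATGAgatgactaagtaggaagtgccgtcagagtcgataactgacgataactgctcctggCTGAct
Snord49b: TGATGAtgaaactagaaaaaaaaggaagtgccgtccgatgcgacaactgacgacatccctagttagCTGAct
Snord89: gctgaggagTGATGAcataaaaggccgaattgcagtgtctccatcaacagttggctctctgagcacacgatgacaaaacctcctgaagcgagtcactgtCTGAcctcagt
Snora2b: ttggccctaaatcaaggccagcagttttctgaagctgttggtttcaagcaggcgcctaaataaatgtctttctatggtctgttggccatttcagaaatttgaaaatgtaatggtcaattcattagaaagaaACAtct
Snora24: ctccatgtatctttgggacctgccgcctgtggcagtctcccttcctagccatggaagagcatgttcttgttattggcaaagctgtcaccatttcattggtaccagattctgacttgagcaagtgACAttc

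The D box and the ACA triplet separated the families in nearly all annotated loci. CTGA occurred in the last 20 bases of 71 of 73 box C/D loci (97.3%) and of 4 of 36 box H/ACA loci (11.1%). ACA occurred in the last 8 bases of 34 of 36 box H/ACA loci (94.4%) and of 6 of 73 box C/D loci (8.22%). TGATGA in the first 26 bases was found in 46 of 73 box C/D loci (63.0%) and in 0 of 36 box H/ACA loci. *Snord16a* is among the box C/D loci without that exact word in its window. Box C/D loci were 64 to 238 bases long with a median of 80, and box H/ACA loci 121 to 196 bases with a median of 132.

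Among the *Snhg* genes and *Gas5*, 9 of the 13 that passed the filter were lower in sh-*Etv5*, 0 were higher and 4 were not called, at an adjusted p under 0.05. Over all 10738 genes tested, 41.0% were called lower and 33.3% higher, so both directions are common in this comparison. The median log2 fold change was -0.30 over the 13 genes and -0.05 over all genes. The summed level of all 17 listed genes, with the 4 that did not pass the filter, was 267.5 to 269.7 RPKM in the sh-NC libraries. It was 186.6 to 199.8 in the sh-*Etv5* libraries. In RNA from whole cultures, fewer cells that express a gene and less of its RNA per cell cannot be told apart.

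The 3 largest falls were in *Snhg5*, *Gas5* and *Snhg3*. *Gas5* (chr1:161034422-161038539, plus strand), first known as a transcript that accumulates in growth-arrested cells, measured 40.4, 42.4 and 40.1 RPKM in sh-NC and 18.5, 17.7 and 17.5 in sh-*Etv5*. The 3 controls were close to each other, and none of the sh-*Etv5* values came near them. The log2 fold change was -1.15 (SE 0.0414, adjusted p = 9.36e-10), and the mean fell by 56.3%.

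*Snhg5* (chr9:88521050-88522929, minus strand) measured 31.0, 30.4 and 30.9 RPKM in sh-NC and 11.6, 13.98 and 12.8 in sh-*Etv5*. All sh-*Etv5* libraries were below all sh-NC libraries, with a log2 fold change of -1.21 (SE 0.0592, adjusted p = 1.04e-08). *Snhg3* (chr4:132348014-132353686, minus strand) measured 25.7, 28.0 and 25.7 RPKM in sh-NC and 12.5, 10.0 and 11.9 in sh-*Etv5*. The groups again stood apart, with a log2 fold change of -1.14 (SE 0.0726, adjusted p = 8.96e-08). Exons of *Gm17300* overlap *Snhg3* on the opposite strand, and since counting by strand is not stated their reads cannot be told apart.

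Smaller falls were found in *Snhg4*, *Snhg8* and *Snhg1*. *Snhg4* measured 7.69, 8.13 and 9.39 RPKM in sh-NC and 4.90, 4.65 and 6.08 in sh-*Etv5* (log2 fold change -0.60, adjusted p = 0.00013). *Snhg8*, the host of *Snora24*, measured 16.4, 18.1 and 17.3 RPKM in sh-NC and 11.6, 12.3 and 12.4 in sh-*Etv5* (log2 fold change -0.48, adjusted p = 7.1e-06). *Snhg1*, the most abundant host, measured 61.8, 66.5 and 64.8 RPKM in sh-NC and 54.0, 50.04 and 59.5 in sh-*Etv5* (log2 fold change -0.24, adjusted p = 0.00288). In none of these 3 genes did the groups overlap, and together with *Gas5*, *Snhg3* and *Snhg5* they were called lower whichever library was left out.

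The calls of *Snhg7*, *Snhg10* and *Snhg20* rested on single libraries. *Snhg7* measured 4.98, 3.93 and 4.42 RPKM in sh-NC and 2.64, 2.74 and 4.20 in sh-*Etv5*, so that 1 sh-*Etv5* library lay among the controls. Its log2 fold change of -0.39 (adjusted p = 0.0165) was -0.32 and no longer called without sh-NC 1, -0.30 without sh-*Etv5* 1 and -0.32 without sh-*Etv5* 2. *Snhg10* measured 1.86, 1.70 and 1.85 RPKM in sh-NC and 1.49, 0.899 and 1.51 in sh-*Etv5*. The groups did not overlap (log2 fold change -0.30, adjusted p = 0.0298), and the call was lost without sh-NC 1 (-0.28), sh-NC 3 (-0.28) or sh-*Etv5* 2 (-0.16). *Snhg20* measured 25.2, 21.8 and 25.4 RPKM in sh-NC and 20.8, 22.6 and 21.1 in sh-*Etv5*, with overlap between the groups. Its log2 fold change was -0.16 (adjusted p = 0.0345), and the call was lost without sh-NC 1 (-0.13), sh-NC 3 (-0.12), sh-*Etv5* 1 (-0.13) or sh-*Etv5* 3 (-0.15).

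Of the 4 host genes not called, *Snhg12* and *Snhg15* were above 10 RPKM. *Snhg12* (chr4:132308623-132311024, plus strand), which holds 4 of the measured snoRNA loci, measured 15.3, 15.3 and 11.96 RPKM in sh-NC and 14.5, 13.6 and 14.7 in sh-*Etv5*. The sh-*Etv5* values all lay within the range of the controls, and the 95% interval of the log2 fold change of 0.01 ran from -0.17 to 0.19. *Snhg15* measured 21.2, 17.7 and 22.4 RPKM in sh-NC and 22.8, 22.4 and 22.2 in sh-*Etv5*, with a log2 fold change of 0.14 (adjusted p = 0.105) that was called higher without sh-NC 3 (0.20). *Snhg6* (9.17, 9.02 and 8.73 RPKM against 8.41, 9.04 and 9.62) and *Snhg17* (6.04, 5.66 and 5.84 against 6.08, 5.78 and 5.53) had log2 fold changes of 0.01 and -0.01. The estimates of *Snhg12* and *Snhg6* turned to -0.05 each after rescaling to the same sum, again not called. *Mcmdc2* has exons opposite *Snhg6*.

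**Figure D1:**
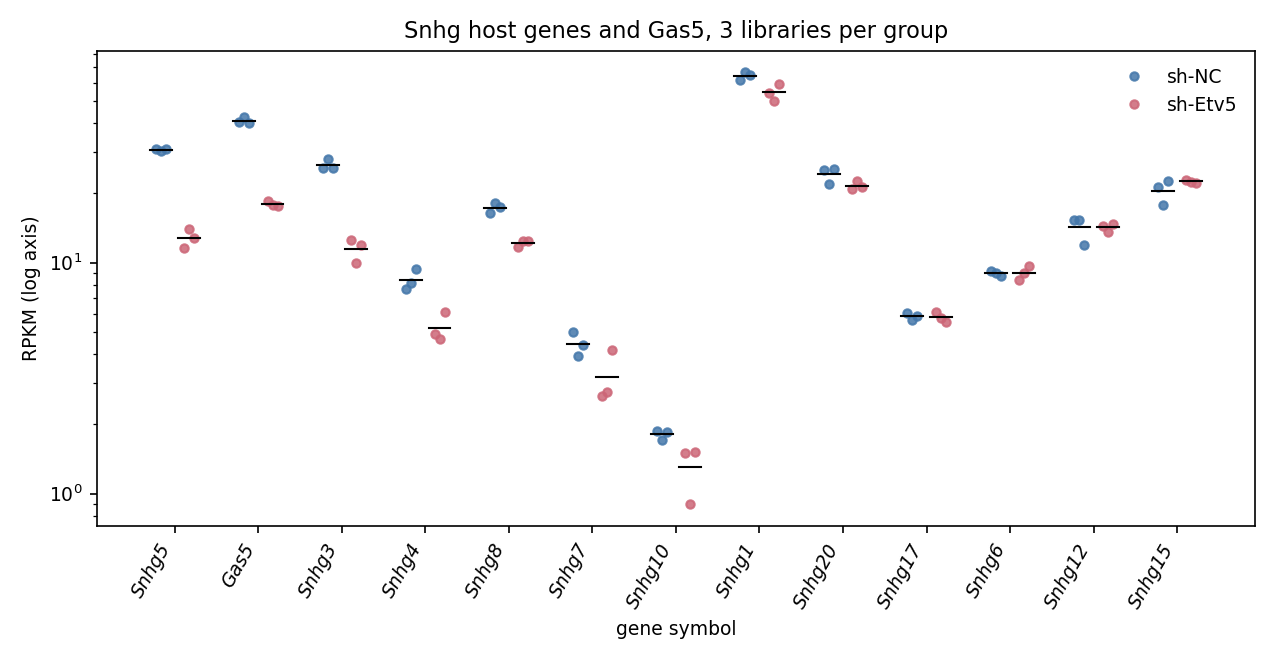
RPKM of the 13 *Snhg* genes and *Gas5* (log axis), with 1 point per library, blue for sh-NC and red for sh-*Etv5*, a black line at each group mean of 3 libraries, and genes ordered by log2 fold change. *Snhg5*, *Gas5* and *Snhg3* on the left lie clear of their controls, while *Snhg12* on the right holds 14.2 RPKM in both groups.

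Most snoRNA loci were called lower. Of 68 loci, 51 (75.0%) were called lower, 1 was called higher and 16 were not called, against the 41.0% called lower over all genes. The 51 include *Snord1b*, which passed the filter through sh-NC alone. Of the 48 loci at 1 RPKM or more in all 6 libraries, 35 were called lower. The median log2 fold change was -0.58, with a range from -1.80 to 0.99, and 65 of the 68 estimates were negative. In 34 loci all sh-*Etv5* libraries were below all sh-NC libraries, against 42.1% of all genes tested, and in 1 locus they were all above, against 34.3%. The summed level of all 110 listed snoRNA loci, with the 42 that did not pass the filter, was 507.6, 524.3 and 507.8 RPKM in sh-NC. It was 295.0, 287.0 and 290.0 in sh-*Etv5*. The median standard deviation within groups on the log2 scale was 0.304 for the snoRNA loci, 0.0945 for the *Snhg* genes and 0.0679 for all genes, so that single loci were measured with more scatter than their hosts.

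The falls were spread over both families. Of 42 box C/D loci, 31 were lower, 1 higher and 10 not called, with a median log2 fold change of -0.60. Of 26 box H/ACA loci, 20 were lower, 0 higher and 6 not called, with a median of -0.56. The lowest coverage in any library was under 10 reads per base in 27 of the 68 loci, and of the other 41 loci 30 were called lower.

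Some loci lie within annotated exons of the gene that holds them, where reads of both transcripts cannot be told apart. All bases were exonic in the host in 38 loci, part of them in 3 and none in 24, and for 3 no exons of a host were on record. Among the 38 loci 32 were lower, 0 higher and 6 not called, and the median log2 fold change was -0.60. Among the 24 loci with no exonic base 16 were lower, 1 higher and 7 not called, and the median was -0.57. Without the filter on low values the count of lower snoRNA loci was 25 and that of lower host genes 5, and the fit then called fewer of both while their fold changes stayed as they were.

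The 15 loci with the largest changes were 14 falls and 1 rise. *Snord16a*, the most abundant of the 68, measured 47.2, 54.0 and 54.9 RPKM in sh-NC and 17.2, 16.8 and 15.5 in sh-*Etv5*. The lowest control was far above the highest sh-*Etv5* library, with a log2 fold change of -1.60 (SE 0.0611, adjusted p = 1.47e-09). *Snord47* measured 17.4, 19.7 and 15.7 RPKM in sh-NC and 8.39, 7.33 and 8.01 in sh-*Etv5*, again with a wide gap between the groups (log2 fold change -1.06, adjusted p = 2.72e-07). *Snord12*, in the noncoding gene *Zfas1*, measured 18.5, 15.6 and 19.7 RPKM in sh-NC and 6.65, 5.19 and 8.97 in sh-*Etv5* (log2 fold change -1.28, adjusted p = 9.84e-06). *Snord100*, in *Rps12*, measured 11.2, 12.3 and 15.9 RPKM in sh-NC and 4.97, 4.45 and 5.67 in sh-*Etv5* (log2 fold change -1.22, adjusted p = 1.81e-06). In both, every control lay above every sh-*Etv5* library.

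The box H/ACA loci with the largest falls were less abundant. *Snora2b* measured 3.98, 5.55 and 5.32 RPKM in sh-NC and 0.946, 1.46 and 0.0127 in sh-*Etv5*. The lowest of these, in sh-*Etv5* 3, corresponds to a mean coverage of at most 0.142 reads per base. The log2 fold change was -1.80 (SE 0.256, adjusted p = 6.71e-05). *Snora24* measured 5.68, 7.06 and 10.8 RPKM in sh-NC and 1.00, 3.75 and 2.78 in sh-*Etv5* (log2 fold change -1.38, adjusted p = 0.000915). *Snora7a*, in *Rpl32*, measured 10.3, 7.46 and 9.29 RPKM in sh-NC and 2.79, 3.67 and 3.16 in sh-*Etv5* (log2 fold change -1.25, adjusted p = 1.12e-06). *Snora44*, in *Snhg12*, measured 5.50, 3.71 and 2.88 RPKM in sh-NC and 1.69, 1.36 and 0.974 in sh-*Etv5* (log2 fold change -1.08, adjusted p = 0.00014). In these 4 loci the groups did not overlap, although the controls of *Snora24* and of *Snora44* varied more widely than the gap between the groups.

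All 3 loci of 1 host, *2410006H16Rik*, were among the largest falls. *Snord49b* measured 9.86, 9.001 and 8.06 RPKM in sh-NC and 2.997, 2.35 and 1.52 in sh-*Etv5* (log2 fold change -1.62, adjusted p = 1.09e-06). *Snord49a* measured 8.22, 6.86 and 5.97 RPKM in sh-NC and 3.40, 1.36 and 3.40 in sh-*Etv5* (log2 fold change -1.16, adjusted p = 0.000371). *Snord65* measured 7.59, 9.23 and 4.84 RPKM in sh-NC and 2.81, 2.24 and 4.44 in sh-*Etv5* (log2 fold change -0.98, adjusted p = 0.00131). *Snord49b* had the clearest gap, and in *Snord65* the lowest control stood just above the highest sh-*Etv5* library.

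The remaining falls of this size were in *Snord2*, *Snord45b* and *Snord93*. *Snord2*, in the translation factor gene *Eif4a2*, measured 7.82, 6.91 and 5.89 RPKM in sh-NC and 2.98, 2.75 and 2.04 in sh-*Etv5* (log2 fold change -1.13, adjusted p = 3.46e-06). *Snord45b*, in *Rabggtb*, measured 5.00, 7.24 and 4.20 RPKM in sh-NC and 1.94, 1.45 and 3.01 in sh-*Etv5* (log2 fold change -1.05, adjusted p = 0.000357). *Snord93*, in the noncoding gene *2700038G22Rik*, measured 2.74, 2.42 and 3.98 RPKM in sh-NC and 0.511, 0.617 and 1.83 in sh-*Etv5* (log2 fold change -1.07, adjusted p = 0.00091). The groups did not overlap in any of the 3.

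*Snord89* was the exception in direction. It measured 0.641, 0.239 and 1.77 RPKM in sh-NC and 2.73, 2.82 and 2.11 in sh-*Etv5*, so every sh-*Etv5* library was above every control. The log2 fold change was 0.99 (SE 0.228, adjusted p = 0.00221), from a lowest coverage of 1.48 reads per base. It was called in each fit that left out 1 library, and not without the filter on low values. It lies in the noncoding gene *Gm15832*, which has no row of its own, so its host could not be set beside it.

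**Figure D2:**
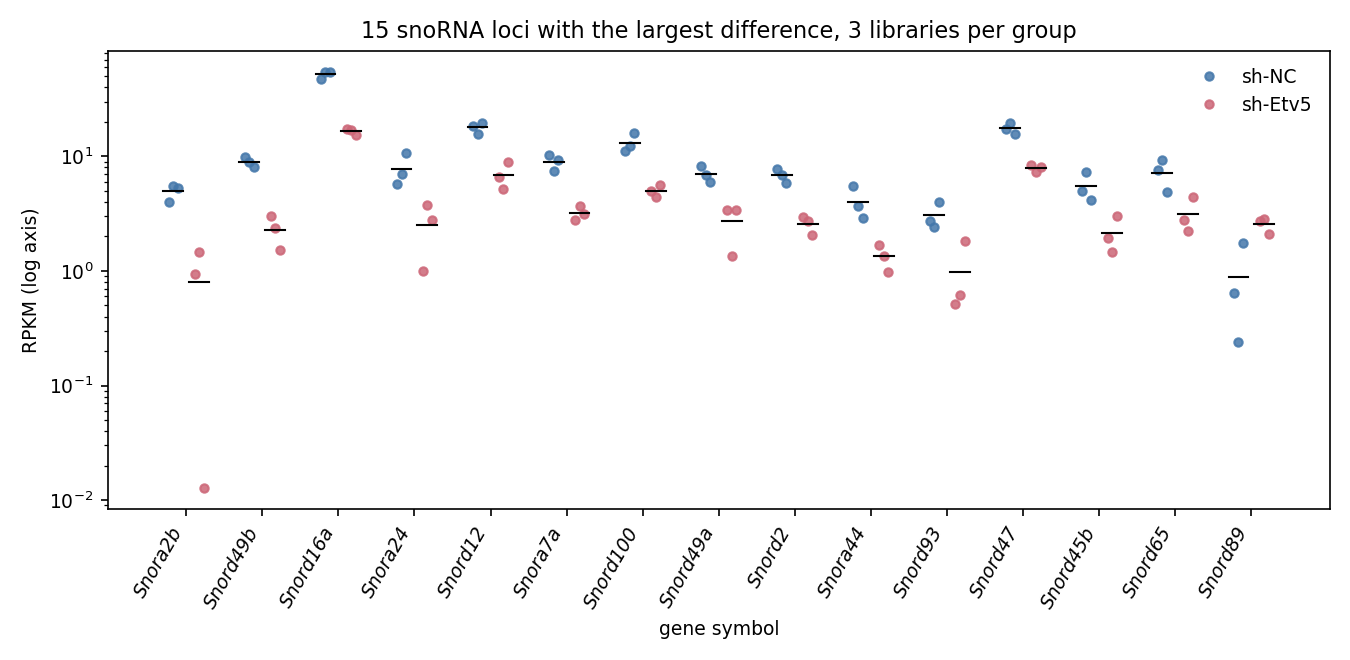
RPKM (log axis) of the 15 snoRNA loci with the largest absolute log2 fold change, with 1 point per library, blue for sh-NC and red for sh-*Etv5*, and a black line at each mean of 3 libraries. *Snord89* at the right end is the only locus whose sh-*Etv5* points lie above the controls, and *Snora2b* in sh-*Etv5* 3 is the lowest point at 0.0127 RPKM.

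The other loci called lower had log2 fold changes from -0.97 to -0.25. Those with groups that did not overlap were *Snord52*, *Snora68*, *Snord55*, *Snord69*, *Snord96a*, *Snord22*, *Snora65*, *Snora70*, *Snora34*, *Snord15b*, *Snora16a*, *Snord1b*, *Snora31*, *Snord37*, *Snora81*, *Snord32a*, *Snora3*, *Snord35b*, *Snord17* and *Snord35a*. Called lower with some overlap between the groups were *Snord33*, *Snord99*, *Snord58b*, *Snord87*, *Snord45c*, *Snora26*, *Snora61*, *Snord68*, *Snord1c*, *Snora21*, *Snora62*, *Snora5c*, *Snora64*, *Snord104*, *Snora52*, *Snord91a* and *Snora28*.

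The 16 loci not called were *Snord4a*, *Snord1a*, *Snord57*, *Snora78*, *Snora33*, *Snord34*, *Snora43*, *Snord42b*, *Snord83b*, *Snora17*, *Snord95*, *Snord19*, *Snord72*, *Snord73a*, *Snora75* and *Snora41*. Their groups all overlapped. *Snora41*, in *Eef1b2*, and *Snora75*, in *Ncl*, were the only ones with a positive estimate, at 0.15 and 0.02. *Snora75* was at -0.02 after rescaling to the same sum and at -0.06 after quantile normalization. The interval for *Snora75* ran from -0.61 to 0.65, which leaves room for a change of either sign.

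**Figure D3:**
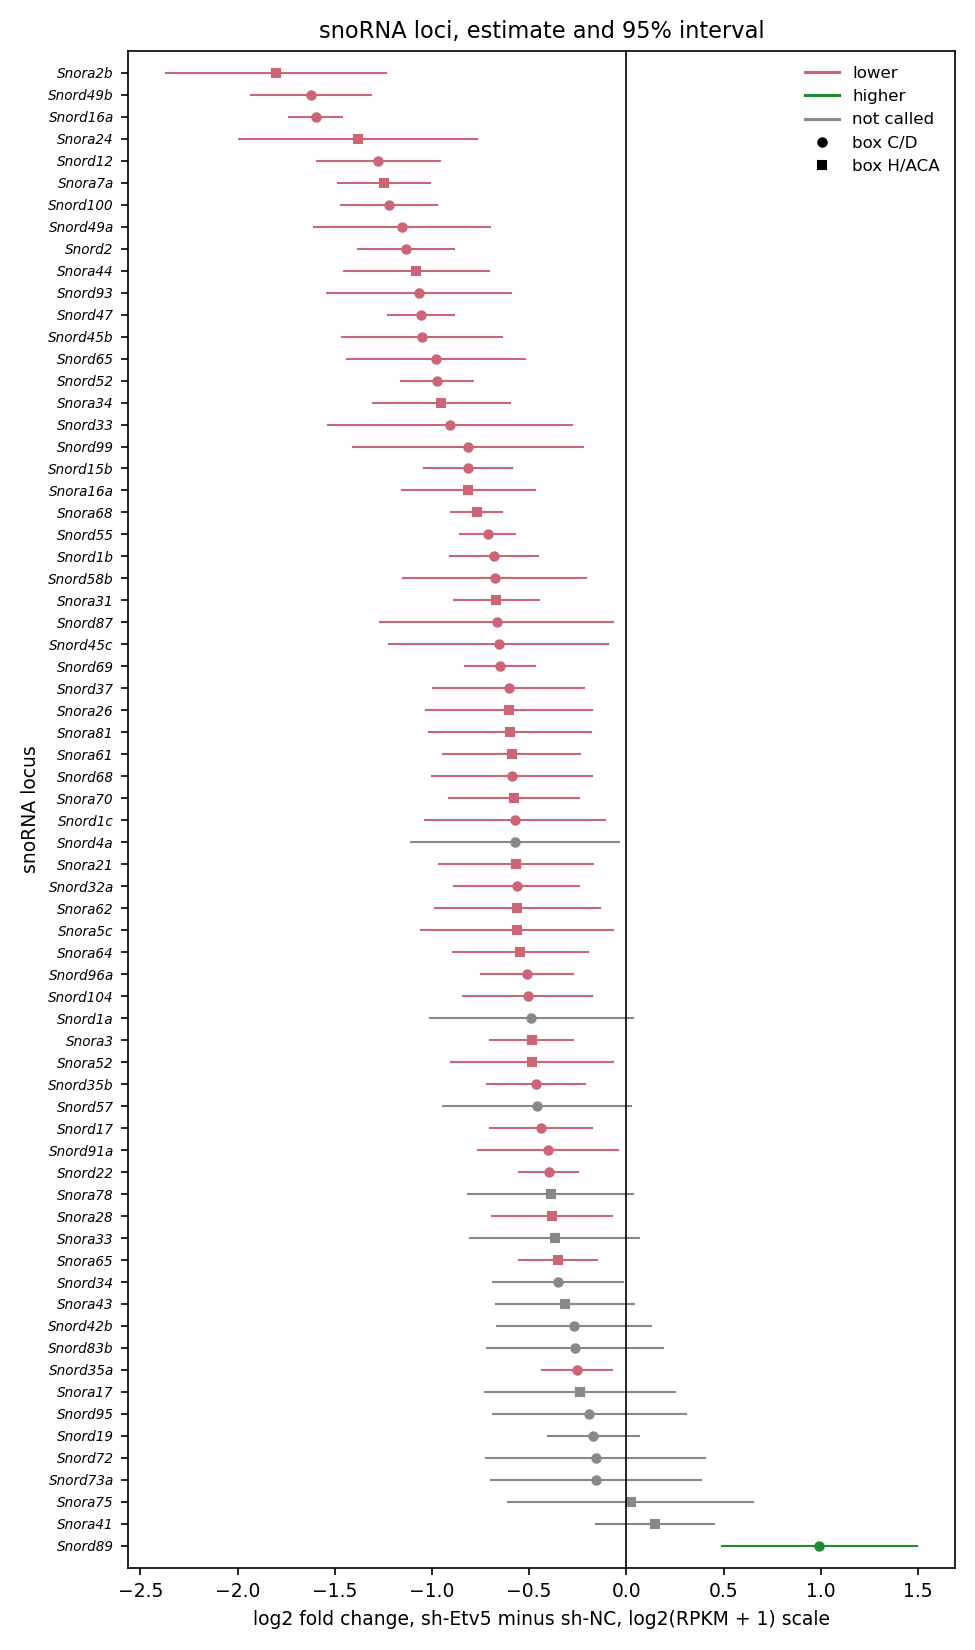
Log2 fold change (sh-*Etv5* minus sh-NC) of each of the 68 snoRNA loci with its 95% interval from limma, circles for box C/D and squares for box H/ACA, coloured by call. Red marks the 51 loci called lower, green the 1 called higher and grey the 16 not called.

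Leaving out single libraries changed the calls of the loci nearest the threshold. Of the 51 lower snoRNA loci, 35 were called lower in all 6 such fits. The other 16 were *Snora21*, *Snora26*, *Snora28*, *Snora52*, *Snora5c*, *Snora62*, *Snord104*, *Snord1c*, *Snord33*, *Snord35a*, *Snord45c*, *Snord58b*, *Snord68*, *Snord87*, *Snord91a* and *Snord99*. Where a call was lost their log2 fold changes ran no lower than -0.76, and counts of lower loci were 41 to 52 across the 6 fits. Of the loci not called, *Snora33*, *Snora43*, *Snora78*, *Snord1a*, *Snord34*, *Snord42b*, *Snord4a*, *Snord57* and *Snord83b* became called lower without 1 library, at log2 fold changes down to -0.86.

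The filter itself left 46 members untested, 42 snoRNA loci and the host genes *Snhg9*, *Snhg11*, *Snhg14* and *Snhg18*. Of these 46, 24 had a lower mean in sh-*Etv5*, 11 had a higher mean and 11 were listed at 0 in every library. In 7 of them all sh-*Etv5* libraries were below all controls, and in 0 all were above. *Snord1b* was the only tested member that reached 1 RPKM in 1 group alone, in 3 sh-NC and 0 sh-*Etv5* libraries, so it had to differ to be tested. It remains in the counts of lower loci, of loci without overlap and of pairs without overlap, and its part in them is no evidence of a fall. Just inside the filter stood *Snord1c*, where 3 libraries were at or above 1.10 RPKM, and *Snora26*, where 3 were at or above 1.17. Just outside stood *Snord43*, where only 2 libraries were above 0.995 RPKM, and *Snord7*, where only 2 were above 0.988.

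Reads from near-identical copies could not be assigned with certainty in 10 of the 68 loci, which share words of 50 bases with genes elsewhere. The share of such words was 88.9% in *Snord1c*, 42.0% in *Snora65*, 38.8% in *Snora81*, 35.3% in *Snord58b* and 34.9% in *Snora41*. It was 23.0% in *Snora5c* and 2.27% to 19% in *Snora75*, *Snora26*, *Snora33* and *Snora21*. None of the 7 loci printed above is among them. *Gm45552* has exons opposite *Snord35b*, and *Tlcd1* opposite *Snord4a*.

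The snoRNA loci were then set against the gene that holds them. *Snord89* and *Snora78* lie in genes without a tested row, and *Snord104* has no annotated host. For the other 65 loci, in 47 host genes, the difference between log2(snoRNA RPKM + 1) and log2(host RPKM + 1) was taken in each library. A difference that fell in sh-*Etv5* means that the snoRNA locus was lower relative to its host on this scale. The added 1 RPKM weighs more on a low locus than on an abundant host, so size and sign can depart from the plain ratio. *Snora26* went from 37.0% to 33.2% of *Dancr*, yet its difference rose by 0.18. The change in the difference was negative in 55 of 65 pairs, with a median of -0.53. All sh-*Etv5* libraries were below all controls in 30 pairs (46.2%) and above them in 0 pairs (0.0%), and the groups overlapped in 35. For single genes tested these shares were 42.1% and 34.3%, and shares over other pairs of genes were not taken. With 3 libraries against 3 the smallest p that an exact permutation test can give is 0.1, so no single pair could pass a threshold of 0.05. Measured as a percent of host RPKM, the median locus stood at 7.77% in sh-NC and 4.34% in sh-*Etv5*.

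The calls of snoRNA and host diverged in many pairs. A lower snoRNA locus lay in a host that was also lower in 23 pairs, in a host not called in 17, and in a host that was higher in 10. Loci not called lay in 9 lower hosts, in 1 higher host and in 5 hosts not called. Both estimates had the same sign in 43 pairs. Across the 65 pairs the log2 fold changes of snoRNA and host had a Pearson correlation of -0.11 and a Spearman correlation of -0.08, as a description, since 12 hosts hold several loci and all pairs come from the same libraries.

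The widest divergence was in *2410006H16Rik*, a noncoding gene. The host rose from 41.3 ± 0.450 to 66.6 ± 4.47 RPKM (SD, n = 3 libraries each), a change of 0.67 on the log2 scale with an adjusted p of 1.82e-07 in limma, while its 3 loci printed or described above fell. Relative to the host, the difference fell by 2.30 for *Snord49b*, by 1.83 for *Snord49a* and by 1.65 for *Snord65*, each with groups that did not overlap (exact permutation test, p = 0.1). *Snord49b* went from 21.7% of its host's RPKM to 3.49%.

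*Snord16a* and *Rpl4* also parted. The host measured 1269 ± 11.6 RPKM in sh-NC and 1350 ± 45.9 in sh-*Etv5* (SD, n = 3). Its log2 fold change was 0.09, with an adjusted p of 0.036 in limma, and the snoRNA locus went from 4.10% to 1.22% of it. Ribosomal protein genes have processed pseudogenes, and how reads shared with them were counted is not stated. *Snord52* fell while its noncoding host *1110038B12Rik* rose from 60.3 ± 0.924 to 76.1 ± 9.69 RPKM (SD, n = 3; adjusted p = 0.00168 in limma), and the relative difference fell by 1.30. *Snora31* fell while *Tpt1*, which encodes a translationally controlled tumor protein, rose from 306.5 ± 3.47 to 386.8 ± 14.9 RPKM (SD, n = 3; adjusted p = 5.37e-06 in limma), a relative fall of 1.00.

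*Snhg12* was not called while all 4 of its loci were called lower. The relative difference fell by 1.09 for *Snora44* and by 0.82 for *Snora16a*, each without overlap between the groups. It fell by 0.83 for *Snord99* and by 0.60 for *Snora61*, where the groups overlapped. The relative difference of *Snord22* in *Snhg1* was small, at -0.16, although the groups did not overlap. *Rpl13a*, which also holds 4 loci, was not called (log2 fold change -0.04), and its loci *Snord33*, *Snord32a* and *Snord35a* were called lower while *Snord34* was not.

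In other loci the difference did not fall, and for *Snord47*, *Snora26* and *Snord91a* the estimate was close to that of the host. All bases of *Snord47* lie in exons of *Gas5*, those of *Snora26* in exons of *Dancr* and those of *Snora75* in exons of *Ncl*, so locus and host can share reads there, while *Snord91a* has none in exons of *Tsr1*. Such overlap was found among the diverging loci too. All bases of *Snord16a*, *Snord52*, *Snora16a*, *Snora44*, *Snora61* and *Snord99* are exonic in their hosts. *Snord49a*, *Snord49b*, *Snord65* and *Snora31* have no exonic base. *Snord47* stood at 42.8% ± 3.64 of *Gas5* in sh-NC and at 44.2% ± 2.44 in sh-*Etv5* (SD, n = 3), and the change in the relative difference was 0.09 with overlapping groups (exact permutation test, p = 0.2). *Snora26* fell with its host *Dancr*, whose log2 fold change was -0.78, and *Snord91a* fell with *Tsr1*, a ribosome assembly gene, at -0.42. *Snora75* was not close to *Ncl*, which encodes nucleolin, at 0.02 against -0.42. Its relative difference had the largest positive value, 0.44, and its groups overlapped.

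**Figure D4:**
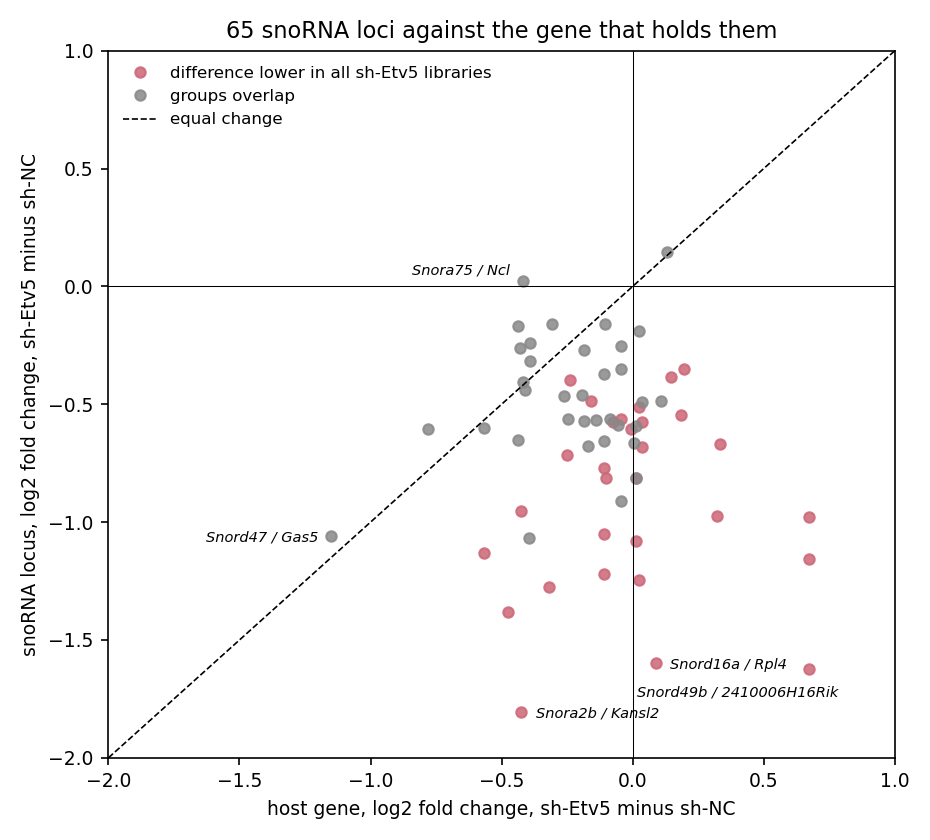
Log2 fold change (sh-*Etv5* minus sh-NC) of each of 65 snoRNA loci against that of the gene that holds it, with a dashed line where both would be equal, red where the snoRNA minus host difference was lower in all sh-*Etv5* libraries and grey where groups overlapped. Of the 65 points, 55 lie below the dashed line, and *Snord47* in *Gas5* lies close to it.

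By the kind of host, grouped after the values were seen, most loci were called lower in each class. Over all genes tested 41.0% were called lower and 33.3% higher. In the *Snhg* genes and *Gas5*, 8 of 10 loci were lower, with a median log2 fold change of -0.74 against -0.32 for their 6 hosts. In the 6 other noncoding hosts, 9 of 10 loci were lower, with a median of -0.98, while 3 of the hosts were lower and 2 higher. In the 21 ribosomal protein genes, 19 of 26 loci were lower, with a median of -0.56, while 10 hosts were lower, 4 higher and 7 not called, with a median of -0.11. That count of lower hosts lay near the share over all genes. In the 10 genes of translation and ribosome assembly 8 of 13 loci were lower, and in the 4 other protein-coding hosts all 6 loci were lower.

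In the wider set of protein-coding genes that hold any annotated snoRNA, 91 of 189 tested (48.1%) were lower, 55 (29.1%) higher and 43 not called, near the 41.0% lower and 33.3% higher over all genes. The median log2 fold change was -0.10, against -0.05 over all genes. Among the 60 that hold a locus with a *Snora* or *Snord* symbol, 37 were lower, 7 higher and 16 not called, with a median of -0.19. The lowest of the 189 were *Frmd4b* (log2 fold change -2.48), *Cks2* (-1.63), *Top2a* (-1.18), *Ncapd2* (-1.03) and *Cep55* (-0.99), the latter 4 of which act in cell division. The highest were *Odc1* (2.24), the first enzyme of polyamine synthesis, *Ell2* (1.29), a transcription elongation factor gene, *Dpep2* (1.25), *Pcdhgb1* (1.19) and *Pcdhga4* (1.19). The latter pair are overlapping genes of the protocadherin gamma cluster with nearly equal values, so their reads cannot be told apart.

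Most genes of the machinery that builds and trims snoRNA particles were called lower. All 8 snoRNP core protein genes were called lower, against 41.0% of all genes, and none overlapped between the groups, with a median log2 fold change of -0.55. *Nop10*, a box H/ACA core protein gene, measured 99.3, 92.9 and 89.6 RPKM in sh-NC and 47.4, 45.4 and 47.7 in sh-*Etv5*. It stood at about the same level in the 3 sh-*Etv5* libraries, far under the controls (log2 fold change -0.99, adjusted p = 4.22e-09). *Dkc1*, which encodes the pseudouridine synthase dyskerin, measured 46.6, 47.9 and 45.6 RPKM in sh-NC and 27.2, 29.7 and 30.2 in sh-*Etv5* (log2 fold change -0.67, adjusted p = 1.65e-07). *Fbl*, which encodes the methyltransferase fibrillarin, had a log2 fold change of -0.57, and *Nop58*, *Snu13*, *Gar1* and *Nhp2* lay between -0.59 and -0.45. *Nop56* had the smallest, at -0.19.

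Of 12 snoRNP assembly factor genes 8 were lower, 0 higher and 4 not called, with a median of -0.34. The lower share was 66.7%, while over all genes tested 41.0% were lower and 33.3% higher. The largest falls were in *Nolc1* (102.8 ± 1.27 to 67.9 ± 0.531 RPKM, SD, n = 3 libraries each) and *Hsp90ab1* (1031 ± 11.9 to 737.3 ± 16.4), with log2 fold changes of -0.59 and -0.48. Of 16 tested genes for the RNA exosome and end trimming, 12 were lower, 1 (*Exosc1*, log2 fold change 0.17) higher and 3 not called, with a median of -0.38. Here the lower share was 75.0%, against the same 41.0%. *Exosc6* (55.5 ± 4.79 to 29.2 ± 2.14) and *Exosc8* (39.2 ± 1.49 to 22.8 ± 1.75) fell most, by 0.90 and 0.75 on the log2 scale. *Parn*, the 3′ exonuclease gene, and *Dbr1*, the lariat debranching enzyme gene, were lower by log2 fold changes of -0.64 and -0.41. *Exosc1* was no longer called without sh-NC 1, sh-NC 2 or sh-*Etv5* 1, and the count of higher genes was 0 in those fits, as it was after rescaling all libraries to the same sum. Its groups overlapped, at 22.3, 22.6 and 25.4 RPKM in sh-NC and 27.0, 25.1 and 26.9 in sh-*Etv5*.

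Of 14 nonsense-mediated decay factor genes, 11 were lower, 0 higher and 3 not called, with a median of -0.30. The lower share was 78.6%, against 41.0% over all genes, of which 33.3% were higher. The largest falls were in *Upf1* (30.5 ± 0.824 to 20.9 ± 1.19 RPKM, SD, n = 3), the central helicase, and *Smg5* (37.1 ± 0.403 to 26.6 ± 0.952), with log2 fold changes of -0.53 and -0.46. A change of at least 0.5 on the log2 scale was then also required. This left 5 of 8 core protein, 1 of 12 assembly factor, 5 of 16 exosome and 1 of 14 decay factor genes lower. Over all genes tested 1611 of 10738 stayed lower, so the assembly factor and decay factor counts did not exceed the general share.

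**Figure D5:**
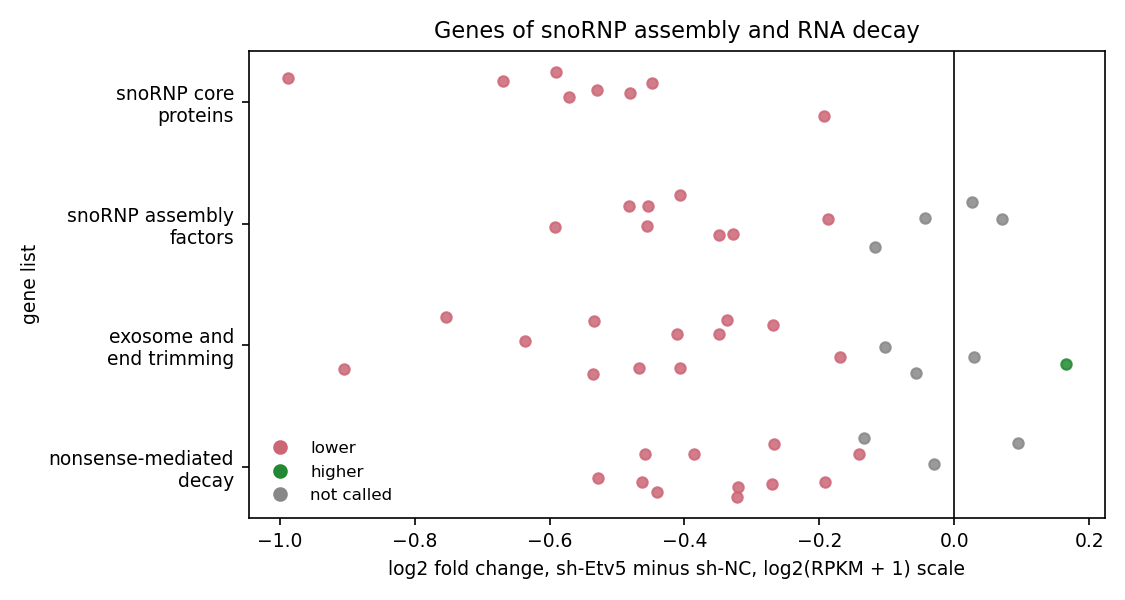
Log2 fold change (sh-*Etv5* minus sh-NC) of the genes in 4 lists, with 1 point per gene coloured by call and spread vertically within a list for legibility only. All 8 snoRNP core protein genes lie below 0, and *Exosc1* is the only gene called higher.

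The labels name polyA RNA, and mature snoRNAs carry no poly(A) tail, so loci with *Scarna*, *Rnu* and similar symbols, whose RNAs mostly lack such a tail too, were read in the same way. Of 18 in the table only *Rnu73b* and *Scarna9* passed the filter. *Rnu73b* is itself annotated as a snoRNA, in *Rps3a1* beside *Snord73a*, and only its symbol kept it out of the members. It measured 4.44, 3.10 and 2.37 RPKM in sh-NC and 2.56, 1.81 and 0.888 in sh-*Etv5*, with overlap and a log2 fold change of -0.67 (adjusted p = 0.0157). *Scarna9* was not called, with a log2 fold change of 0.0019. The summed level of the 18 loci was 7.28 to 11.1 RPKM in sh-NC and 6.38 to 10.6 in sh-*Etv5*, and *Rnu6* and *Rnu7* were listed at 0. Whether the reads at the snoRNA loci came from mature snoRNAs or from unspliced host RNA was not tested.

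Promoters of the host genes were read because ETV5 belongs to a family of factors that bind a GGAA core. In RefSeq (GRCm38.p6) promoter windows, from 250 bases before to 50 bases after a start, 11 of the 13 host genes had 13 windows. The word CCGGAAG, searched on both strands, was found in 3 of 13 windows (23.1%), in 8.86% of all RefSeq windows and in 19.6% of the windows of genes tested. The 3 were those of *Snhg3*, *Snhg10* and *Snhg20*. A start at C followed by at least 4 pyrimidines, the mark of a 5′ terminal oligopyrimidine tract, was found in 3 of 13 windows, those of *Snhg7*, *Snhg8* and the second start of *Gas5*, in 2.51% of all windows and in 2.31% of those of genes tested. The windows of *Snhg3* (chr4:132353637-132353936, minus strand, the word in capitals) and of the second start of *Gas5* (chr1:161034916-161035215, plus strand) are shown because these were among the 3 largest falls and differ in both features.
Snhg3: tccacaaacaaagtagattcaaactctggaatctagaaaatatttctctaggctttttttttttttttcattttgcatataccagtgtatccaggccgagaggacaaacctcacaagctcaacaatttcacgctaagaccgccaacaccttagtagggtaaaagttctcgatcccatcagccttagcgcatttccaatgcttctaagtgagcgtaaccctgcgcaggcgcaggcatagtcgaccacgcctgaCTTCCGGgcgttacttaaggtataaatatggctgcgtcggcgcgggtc
Gas5: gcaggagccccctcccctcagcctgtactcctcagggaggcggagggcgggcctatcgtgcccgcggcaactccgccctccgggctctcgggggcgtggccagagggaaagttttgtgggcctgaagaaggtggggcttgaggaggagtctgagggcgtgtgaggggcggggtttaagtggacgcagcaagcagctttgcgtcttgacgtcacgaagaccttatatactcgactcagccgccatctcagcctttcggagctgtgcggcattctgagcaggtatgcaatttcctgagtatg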

How the data were processed

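RNA of 3 sh-NC and 3 sh-*Etv5* libraries of Raw264.7 cells was read from 1 table. The authors deposited RPKM values per gene symbol and library, taken from coverage tracks on the mm10 build named in the submitters' processing notes, without log transformation. Libraries were made with an Illumina TruSeq RNA kit. The aligner and annotation are not given in the sources used here. Scaling to mapped reads lets a few strong genes shift all others. Genes at 1 RPKM or more in at least 3 of 6 libraries were compared as log2(RPKM + 1) with limma 3.58.1 in R 4.3.3 (two-sided, intensity trend, no covariate), with Benjamini-Hochberg adjustment over all 10738 genes and a threshold of 0.05. On simulated data for those 10738 genes, 184 of 200 changed genes were called, with 7 false calls. The simulation changed far fewer genes than were called in the data, and recovery at snoRNA loci was not counted separately. Members and lists were chosen with earlier results of these data known.

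Named were all tested members, with every library given for *Gas5*, for *Snhg* genes called or averaging at least 10 RPKM, and for the 15 snoRNA loci with the largest absolute change. Hosts beside their loci, the pair of members nearest the filter on each side, the pair with the largest change in each companion list, and the 5 highest and 5 lowest called protein-coding hosts were also named. *Snhg6*, *Snhg17*, *Exosc1*, *Parn*, *Dbr1* and further core protein genes were named after their values were seen. Loci were placed by GENCODE M21 (GRCm38) for 124 of 127 symbols and by RefSeq for 2, and 1 was not placed. A host is a gene whose span holds the locus on the same strand. Positions, words and intervals used Python 3.11.15, pandas 2.3.3, NumPy 2.4.6 and SciPy 1.17.1. Replicate numbers in the labels are shared between groups, and the correlation of deviations from the group means was 0.0739, -0.071 and -0.0352 for numbers 1, 2 and 3, so the numbers were not taken as pairs. Tried as alternatives were a pseudocount of 0.1 or 0.01, leaving the filter out, requiring a mean of 5 RPKM, rescaling to the same sum, quantile normalization, no intensity trend, a replicate block, each library left out, and an absolute log2 fold change of at least 0.5. Loci without host exon bases, hosts of *Snora* or *Snord* loci and rescaling outside the top 10 genes were added after seeing the data.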

Additional observations from a re-analysis of the deposited data

How the results depend on the processing

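Of the 60 members called lower, 60 were still lower with a pseudocount of 0.1, 58 with 0.01, 60 after rescaling to the same sum, 59 after quantile normalization, 60 after rescaling outside the top 10 genes, 54 without the intensity trend, and 46 to 54 when 1 library was left out. Only 27 were lower with no filter on low values and 27 with a mean RPKM of at least 5, which tests fewer genes. For the first of these the cause was not tested. No filter gave 25 lower and 0 higher snoRNA loci, 5 lower host genes and 0 higher exosome genes, and a mean of at least 5 gave 21 lower and 0 higher snoRNA loci. Loci with no base in host exons held 16 lower calls, and hosts of *Snora* or *Snord* loci 37 lower and 7 higher. Requiring a log2 fold change of 0.5 gave 1611 lower and 1711 higher genes, against 4399 lower and 3575 higher without it, so that higher calls became the more numerous, 4 lower *Snhg* host genes, 27 lower and 26 higher protein-coding hosts, 5 lower snoRNP core, 1 assembly, 5 exosome (0 higher) and 1 nonsense-mediated decay genes. Rescaling to the same sum gave 0 higher exosome genes, and quantile normalization gave 1 higher decay factor gene. Leaving out 1 library gave 0 to 1 higher *Snhg* host genes, 0 to 1 higher exosome genes, and 0 to 2 higher snoRNA to host differences. No called member changed sign under these alternatives. Of the 20 members not called, 8 did so at least once, namely *Snhg6*, *Snhg12*, *Snhg17*, *Snora17*, *Snora75*, *Snord72*, *Snord73a* and *Snord95*, and *Snora75* ran to -0.24 from 0.02. The replicate block gave 52 lower snoRNA loci, 8 lower host genes and 57 of the 60 lower members, and the numbers do not mark pairs. Coverage of under 10 reads per base, by the fitted steps in 27 snoRNA loci and possibly in more, limits their precision.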
